A study of Mus musculus with 20 samples.

Results

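Mature miR-324, miR-326, miR-331 and miR-345 were followed on both arms of their hairpins, which gave 8 members of the 1481 features in the small RNA tables. They were chosen by name, as conserved miRNAs that rise evenly after oxygen-glucose deprivation (OGD), so their OGD changes are a description here and carry no test. That description fitted 5 of the 8: miR-324-5p, miR-324-3p, miR-326-3p, miR-331-3p and miR-345-5p were 2.35-fold to 3.22-fold higher after OGD in wild-type neurons. The other 3 arms differed from it: miR-331-5p was lower on average, miR-345-3p stayed near its normoxic level in CPM, and miR-326-5p had 0 to 3 reads in every library.

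The libraries came from primary cortical neurons of C57BL/6N-Cdr1asem1Nikr mice, isolated at embryonic day 15 and cultured for 7 days. Cells were wild type (WT) or knockout for ciRS-7, a circular RNA of the brain also called Cdr1as that binds miR-7, and the labels give the same strain name to both genotypes. Normoxic cultures were kept for 12 h at 37 °C and 5% CO2 in medium with 25 mM glucose and 0.2 mM pyruvate. OGD cultures, a dish model of ischaemia, spent the same 12 h at 37 °C, 5% CO2 and 1% O2 in medium without these additions. The 4 groups were normoxic wild type, OGD wild type, normoxic knockout and OGD knockout, with 5 biological replicates each. The labels do not tie the cultures to animals, so p-values measure the spread between these samples.

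A miRNA is cut from a hairpin by Drosha and Dicer, and either the 5p or the 3p strand of the resulting duplex is loaded into Argonaute. The loaded strand recognises messenger RNAs mainly through its seed, bases 2 to 8, and lowers their translation or stability. The other strand is usually degraded, so the balance of arms shows which strand of a hairpin accumulates. In neurons, miR-324-5p is known as a repressor of the potassium channel Kv4.2, and the miR-324 hairpin is known for a change of arm when its end is uridylated. With miR-125b and miR-326, miR-324-5p is also known for repression of the Hedgehog pathway in cerebellar granule progenitors.

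The mature sequences show that no pair of members shares a seed. They are printed 5′ to 3′ with the seed in capitals, from RefSeq (GRCm38.p6), where all 8 members were matched by name.
mmu-miR-324-5p: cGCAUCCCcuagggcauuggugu
mmu-miR-324-3p: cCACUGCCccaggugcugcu
mmu-miR-326-3p: cCUCUGGGcccuuccuccagu
mmu-miR-326-5p: gGGGGCAGggccuuugugaaggcg
mmu-miR-331-3p: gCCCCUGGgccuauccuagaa
mmu-miR-331-5p: cUAGGUAUggucccagggaucc
mmu-miR-345-5p: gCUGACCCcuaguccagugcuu
mmu-miR-345-3p: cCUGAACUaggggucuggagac

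Among all mouse miRNAs in the same RefSeq table, the seed of miR-326-3p was found in miR-330-5p and that of miR-331-5p in miR-6973b-5p. The first of these seed partners is shown because it is well expressed.
mmu-miR-330-5p: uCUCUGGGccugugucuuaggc

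The members are rich in G and C, at 59.1% to 70.8% of their bases against a median of 47.8% over the features with a sequence. All 7 measurable members lay among the features with the highest GC content, from 58.3% up, which were 83 in the wild-type and 82 in the knockout comparison. The 83 had a median log2 fold change of 0.25 in wild type and the 82 one of 0.20 in the knockout, against 0.22 and 0.20 over all features. Across features, GC content and OGD change had a Pearson r of 0.20 in wild type and 0.13 in the knockout, with Spearman's rho of 0.04 and 0.02. Sequences were found for 87.1% of the 425 features compared in wild-type neurons.

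The 4 hairpins lie on 4 chromosomes, each inside a protein-coding gene (GRCm38, GENCODE M21). Mir324 is at chr11:70012043-70012131 on the plus strand, in the last exon (UTR) of 2 transcripts of Dvl2, a Wnt signal transducer. On the opposite strand the same stretch is in an intron of Acadvl, an enzyme of mitochondrial fatty acid oxidation. Mir326 is at chr7:99552269-99552363 on the plus strand, in an intron of Arrb1, which encodes a beta-arrestin. Mir331 is at chr10:93963768-93963863 on the minus strand, within Vezt, which encodes an adherens junction protein; it is intronic except in 1 transcript, where it falls in a UTR exon. Mir345 is at chr12:108836973-108837068 on the plus strand, in an intron of noncoding transcripts of Slc25a47, a mitochondrial carrier gene, with its last bases in an exon of another such transcript. Its hairpin is shown because its arms behaved differently after OGD; the arms are in capitals, 5p first and 3p second.
Mir345 hairpin: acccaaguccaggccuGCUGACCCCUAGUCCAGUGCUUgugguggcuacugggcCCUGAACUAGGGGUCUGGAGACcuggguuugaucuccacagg

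Levels are CPM, read counts scaled to a common library size, from reads recovered from the deposited values. Libraries held 1160582 to 12477032 reads, and OGD libraries were shallower on average. A floor of 3 reads was worth 0.249 to 2.55 CPM, which covers counting error only. Markers of neurons (5 of 5 detected) summed to 299240 to 386490 CPM in normoxic and 290020 to 356770 CPM in OGD wild-type libraries. Their medians there were 328890 and 300460 CPM. In the knockout these markers summed to 304040 to 345390 and 288190 to 355180 CPM, with medians of 332090 and 331380 CPM. Those of microglia and blood (5 of 5 detected) summed to 123 to 133 CPM in normoxic and 148 to 210 CPM in OGD wild-type libraries, and to 112 to 139 and 159 to 235 CPM in the knockout. Oligodendrocyte markers (2 of 2 detected) summed to 5.29 to 11.1 and 9.04 to 13.7 CPM in normoxic and OGD wild-type libraries, and to 7.28 to 11.4 and 9.97 to 14.0 CPM in the knockout, with higher medians after OGD. The part of the neuron, microglia and oligodendrocyte lists in the members' changes was not tested. Markers of vessels (4 of 4 detected) were within 306 to 446 CPM and those of red cells (2 of 2 listed) within 0.557 to 5.10 CPM. The red cell sums were near the floor: in OGD knockout libraries they were 0.557 to 1.39 CPM, where 3 reads were worth 0.975 to 1.67 CPM. No listed marker was at 0 in all libraries. The OGD label was checked with miR-210-3p, a hypoxia-induced miRNA, which went from 18.3 ± 6.28 to 108 ± 34.7 CPM in wild-type neurons (SD, n = 5). OGD wild-type replicate 5 stood apart in this check, at 47.2 CPM against 111 to 128 CPM in the other 4, and was above all normoxic wild-type libraries. In knockout neurons miR-210-3p went from 26.0 ± 12.6 to 110.2 ± 46.3 CPM (SD, n = 5) without overlap, and normoxic replicate 3 there, at 47.7 CPM, was as high as that OGD wild-type library. Without OGD wild-type replicate 5, the 5 arms named as higher after OGD had log2 fold changes of 1.19 to 1.64 in wild type.

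Wild-type normoxic replicate 5 stood apart from the other 4 of its group on the first principal component of 423 features, at -0.88 against -14.5 to -13.1, with OGD wild-type libraries at 8.95 to 15.1. Its members did not share that shift. For 5 of 7 arms it was inside the range of the other normoxic wild-type libraries, and miR-324-5p and miR-345-3p were below that range, at 22.7 CPM against 23.4 to 28.9 and at 126 CPM against 129 to 153. Without it, the 5 higher arms had log2 fold changes of 1.20 to 1.70, against 1.23 to 1.69 with it, and miR-331-5p and miR-345-3p were at -0.41 and 0.14.

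mmu-miR-324-5p, the more abundant arm of its hairpin, was at 28.3, 24.9, 28.9, 23.4 and 22.7 CPM in the 5 normoxic wild-type libraries and at 67.1, 72.3, 103, 75.1 and 74.8 CPM in the 5 after OGD. In knockout neurons it was at 25.3, 32.3, 32.1, 28.0 and 20.8 CPM in normoxia and at 95.6, 78.6, 94.2, 72.6 and 83.6 CPM after OGD. Each OGD library was above each normoxic library in both genotypes. The means went from 25.6 ± 2.81 to 78.4 ± 14.0 CPM in wild type and from 27.7 ± 4.85 to 84.9 ± 9.92 CPM in the knockout (SD, n = 5). With 0.5 CPM added before taking logs, which shrinks the changes of rare features, the log2 fold change was 1.59 (SE 0.15) in wild type and 1.61 (SE 0.14) in the knockout. Within a library, the median rank of miR-324-5p by abundance moved from 306 to 252 in wild type and from 303 to 238 in the knockout. OGD wild-type replicate 3, at 103 CPM, was far above the other 4 of its group and is also the shallowest library, with 121 reads of this arm. It was also the highest of its group for miR-331-5p, miR-345-5p (104 CPM) and miR-345-3p (180 CPM). For miR-324-3p, miR-326-3p and miR-331-3p, OGD wild-type replicate 5 was the highest. The cause was not tested.

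mmu-miR-324-3p, the minor arm, was at 10.2, 7.62, 12.3, 7.94 and 9.82 CPM in normoxic and at 25.1, 24.5, 26.3, 20.9 and 35.1 CPM in OGD wild-type libraries. Knockout libraries held 8.82, 8.20, 7.16, 9.44 and 10.9 CPM in normoxia and 28.0, 25.8, 20.7, 27.4 and 31.8 CPM after OGD. The groups did not overlap in either genotype. OGD changed its log2 level by 1.42 (SE 0.20) in wild type and 1.53 (SE 0.16) in the knockout, close to that of miR-324-5p. Both arms of miR-324 were thus higher side by side.

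mmu-miR-326-3p, the arm of the Arrb1 intron that accumulates, was at 81.0, 68.6, 89.9, 71.4 and 83.5 CPM in normoxic wild-type libraries. After OGD the wild-type libraries held 202, 193, 222, 202 and 277 CPM. Knockout libraries held 84.2, 86.9, 92.4, 84.2 and 83.2 CPM in normoxia and 219, 184, 170, 187 and 236 CPM after OGD. The lowest OGD library, at 170 CPM, was well above the highest normoxic one, at 92.4 CPM. On the log2 scale this was a change of 1.46 (SE 0.13) in wild type and 1.19 (SE 0.10) in the knockout. Its partner arm, miR-326-5p, was read 3 times in all normoxic wild-type libraries together, 4 times in OGD wild type, 3 times in normoxic knockout and 4 times in OGD knockout. At 0 to 3 reads a library, a change of miR-326-5p was not detectable at this depth, and no fold is given.

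mmu-miR-331-3p, known for repression of the receptor tyrosine kinase ERBB2, had the highest mean of the 5 higher arms in every group. Its wild-type levels were 101, 91.1, 116, 98.1 and 91.4 CPM in normoxia and 237, 202, 223, 247 and 261 CPM after OGD. In the knockout they were 106, 87.2, 102, 107 and 112 CPM in normoxia and 229, 227, 206, 224 and 247 CPM after OGD. No library crossed between the groups. The log2 fold change was 1.23 (SE 0.12) in wild type and 1.14 (SE 0.09) in the knockout, the smallest of the 5 higher arms in both genotypes.

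mmu-miR-331-5p, the other strand of the same hairpin, did not follow it. It was at 29.2, 24.0, 20.8, 24.8 and 21.9 CPM in normoxic and at 20.2, 15.7, 21.2, 15.3 and 20.1 CPM in OGD wild-type libraries. Knockout libraries held 32.5, 26.6, 37.3, 26.1 and 22.6 CPM in normoxia and 20.5, 21.5, 18.0, 19.4 and 22.8 CPM after OGD. OGD libraries were lower on average, and in each genotype at least 1 of them reached into the normoxic range. The log2 fold change was -0.38 (SE 0.17) in wild type and -0.48 (SE 0.15) in the knockout.

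mmu-miR-345-5p was at 23.1, 18.9, 27.5, 19.6 and 23.0 CPM in normoxic and at 68.1, 52.2, 104, 66.1 and 82.8 CPM in OGD wild-type libraries. Knockout libraries held 22.9, 26.3, 28.6, 26.6 and 28.5 CPM in normoxia and 72.5, 63.1, 67.8, 67.0 and 85.3 CPM after OGD. The groups were far apart, and the OGD wild-type libraries spread most, with 74.6 ± 19.5 CPM (SD, n = 5). The log2 fold change was 1.69 (SE 0.18) in wild type, the largest among the members there, and 1.40 (SE 0.12) in the knockout.

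mmu-miR-345-3p, the arm with more reads, was at 153, 129, 150, 151 and 126 CPM in normoxic and at 159, 145, 180, 159 and 165 CPM in OGD wild-type libraries. In the knockout it was at 141, 128, 146, 132 and 148 CPM in normoxia and at 154, 161, 157, 157 and 171 CPM after OGD. The wild-type groups overlapped, and the knockout groups were separated by a narrow gap. The log2 fold change was 0.19 (SE 0.12) in wild type and 0.20 (SE 0.09) in the knockout, near the median of all features in each genotype. With libraries centred on their medians the sign turned, to -0.37 and -0.31, and the OGD libraries were then all below the normoxic ones in both genotypes. After quantile normalization this was so in wild type only, so no direction is given for this arm.

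**Figure D1:**
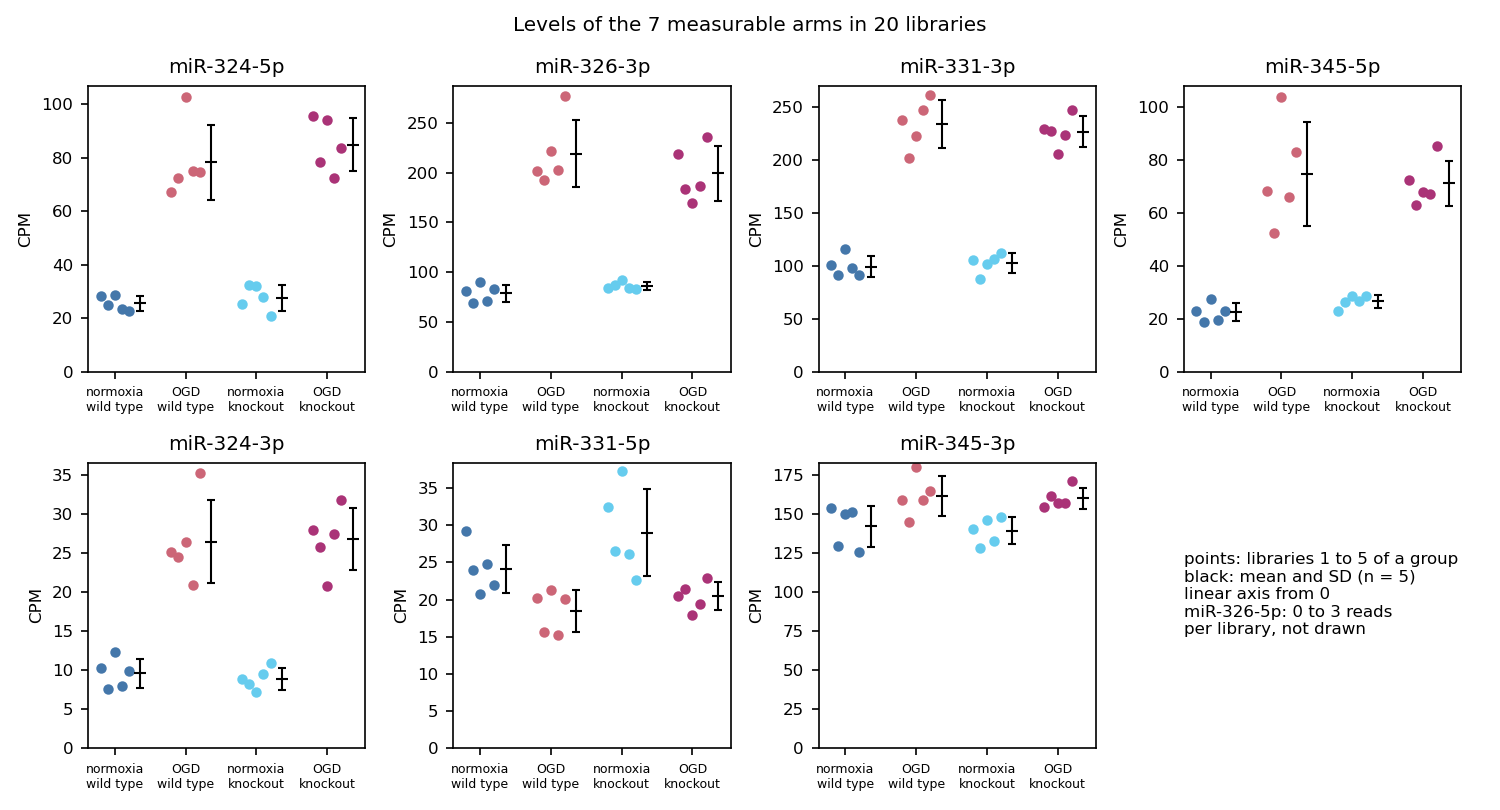
CPM of the 7 measurable arms (vertical axes, linear from 0, a separate scale for each panel) in the 5 libraries of each of 4 groups (horizontal axis); coloured points are libraries and black marks are the mean and SD (n = 5). For miR-324-5p, miR-324-3p, miR-326-3p, miR-331-3p and miR-345-5p every OGD point is above every normoxic point, while the groups of miR-331-5p overlap and miR-345-3p changes little.

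Set against the other features, the 5 higher arms lay in the upper part of the distribution but not at its top. In wild type they ranked 40 to 49 from the largest increase down among 425 features whose log2(CPM + 0.5) averaged 3 or more. In the knockout they ranked 37 to 47 of 420. Median changes over all these features were 0.22 in wild type and 0.20 in the knockout, and 66.6% and 65.2% of features were above 0. miR-331-5p ranked 368 and 370, and miR-345-3p ranked 222 and 205. Of the 7 measurable arms, 5 had OGD libraries all above the normoxic ones in wild type, where this was so for 27.3% of features. In the knockout 6 of 7 did, where 33.6% of features did; the additional arm was miR-345-3p, which left 5 after centring. On this scale no member was lower without overlap, against 8% of features in wild type and 11.2% in the knockout. These shares come from the contrast that chose the members, so nothing is read from the excess.

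An even increase was part of the choice of members, so the spread of sizes is a description. The 5 higher arms spanned 0.45 log2 units in wild type, from miR-331-3p to miR-345-5p, and 0.47 in the knockout, from miR-331-3p to miR-324-5p, or 2.21-fold to 3.05-fold. The scale of the libraries matters: the median of a library moved by 0.56 (log2) between normoxia and OGD in wild type and by 0.51 in the knockout. Relative to that shift, the wild-type changes were 1.02 for miR-324-5p, 0.85 for miR-324-3p, 0.90 for miR-326-3p, 0.67 for miR-331-3p and 1.12 for miR-345-5p. In the knockout they were 1.10, 1.02, 0.68, 0.63 and 0.89 in the same order. All 5 stayed above 0 with no overlap between groups after centring, as they did after quantile normalization. miR-331-5p was at -0.94 in wild type and -0.99 in the knockout after centring, and on that scale its OGD libraries were all below the normoxic ones. In bulk RNA, fewer cells of a type and less RNA per cell cannot be told apart.

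**Figure D2:**
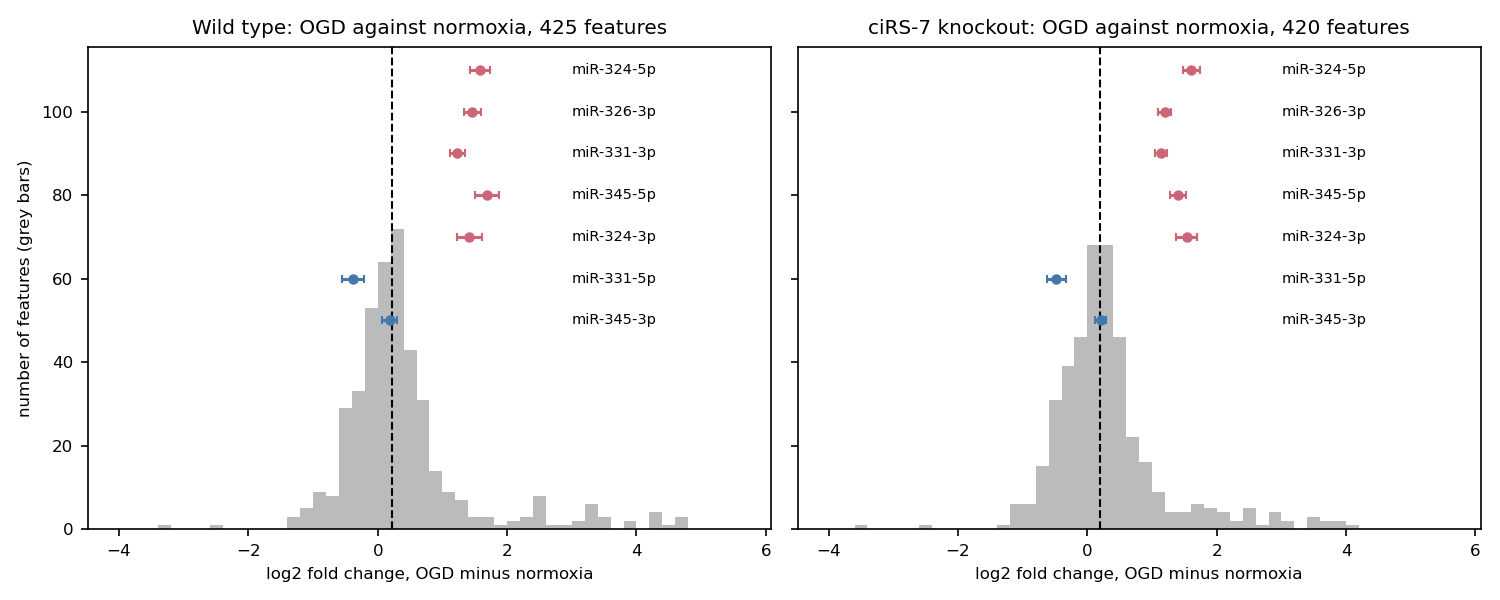
Log2 fold change of OGD against normoxia (horizontal axis) in wild-type and knockout neurons. Grey bars count the features at each change (vertical axis) and the dashed line is their median (0.22 and 0.20); points with SE bars are the members, stacked at arbitrary heights, with the 5 higher arms in red to the right of most features and miR-331-5p and miR-345-3p in blue.

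Arm balance gave a view that does not depend on how libraries are scaled, since both arms are read in the same library. It comes from the same OGD contrast as the choice of members and is given without a test, and how well the library kit captures each arm was not measured. For miR-324 the 5p arm made up 72.9% ± 2.91 of the hairpin's reads in normoxic wild-type neurons and 74.7% ± 4.60 after OGD (SD, n = 5). In the knockout it was 75.2% ± 6.26 and 75.9% ± 3.94. These ranges overlapped: the arms of miR-324 kept their proportion while their sum went from 35.2 to 105 CPM in wild type and from 36.6 to 112 CPM in the knockout.

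For miR-331 the balance moved towards the 3p arm. The 5p share was 19.6% ± 2.71 in normoxic wild-type libraries, with a range of 15.2% to 22.5%, and 7.34% ± 1.05 after OGD, with a range of 5.84% to 8.71%. In the knockout it went from 22.0% ± 3.88 to 8.26% ± 0.279. No OGD library reached the lowest normoxic share in either genotype. The log2 ratio of 5p to 3p changed by -1.61 in wild type, 3.05-fold towards 3p, and by -1.62 in the knockout, 3.07-fold.

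For miR-345 the balance moved the other way. The 5p share was 13.7% ± 1.77 in normoxic wild-type libraries, with a range of 11.5% to 15.5%, and 31.2% ± 3.88 after OGD, with a range of 26.5% to 36.5%. In the knockout it went from 16.1% ± 1.21 to 30.7% ± 1.97. The lowest OGD share was above the highest normoxic share in both genotypes. The log2 ratio changed by 1.50 in wild type, or 2.83-fold, and by 1.20 in the knockout, or 2.29-fold. The summed level of both miR-345 arms went from 164 to 236 CPM in wild type and from 166 to 231 CPM in the knockout. The 3p arm remained the larger one: in the hairpin printed above, the capitals nearest the 3′ end still carried most reads after OGD.

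**Figure D3:**
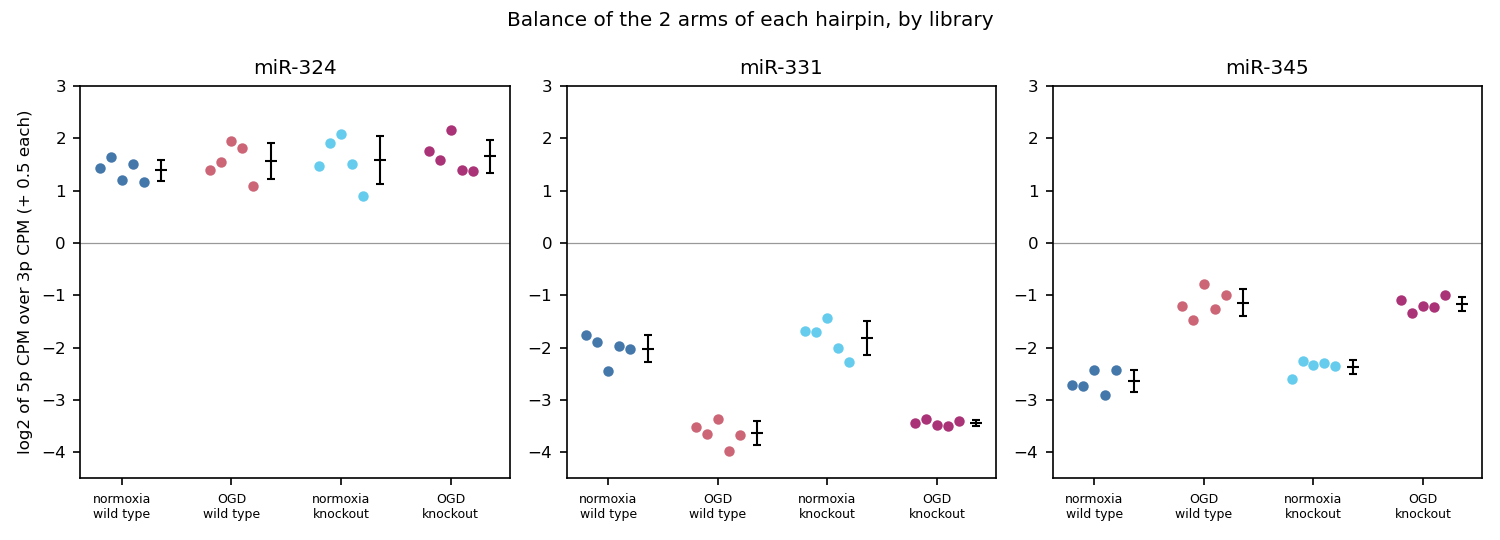
Log2 of 5p CPM over 3p CPM, with 0.5 CPM added to each (vertical axis), for miR-324, miR-331 and miR-345 in the 5 libraries of each group (points), with mean and SD in black. miR-324 overlaps across groups, miR-331 is lower after OGD (mean -2.02 to -3.63 in wild type) and miR-345 is higher after OGD (mean -2.64 to -1.14 in wild type).

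Changes of arm balance were common after OGD. Among 95 miRNAs with at least 10 reads of each arm in every library of the wild-type comparison, 41.1% had OGD and normoxic ratios that did not overlap, and among 110 in the knockout 48.2% did. The median absolute change was 0.52 in wild type and 0.51 in the knockout. By size, miR-331 ranked 7 of 95 and 7 of 110, miR-345 ranked 10 of 95 and 19 of 110, and miR-324 ranked 77 of 95 and 101 of 110. The hairpins chosen as one even group thus lay both near the top and near the bottom of that order.

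**Figure D4:**
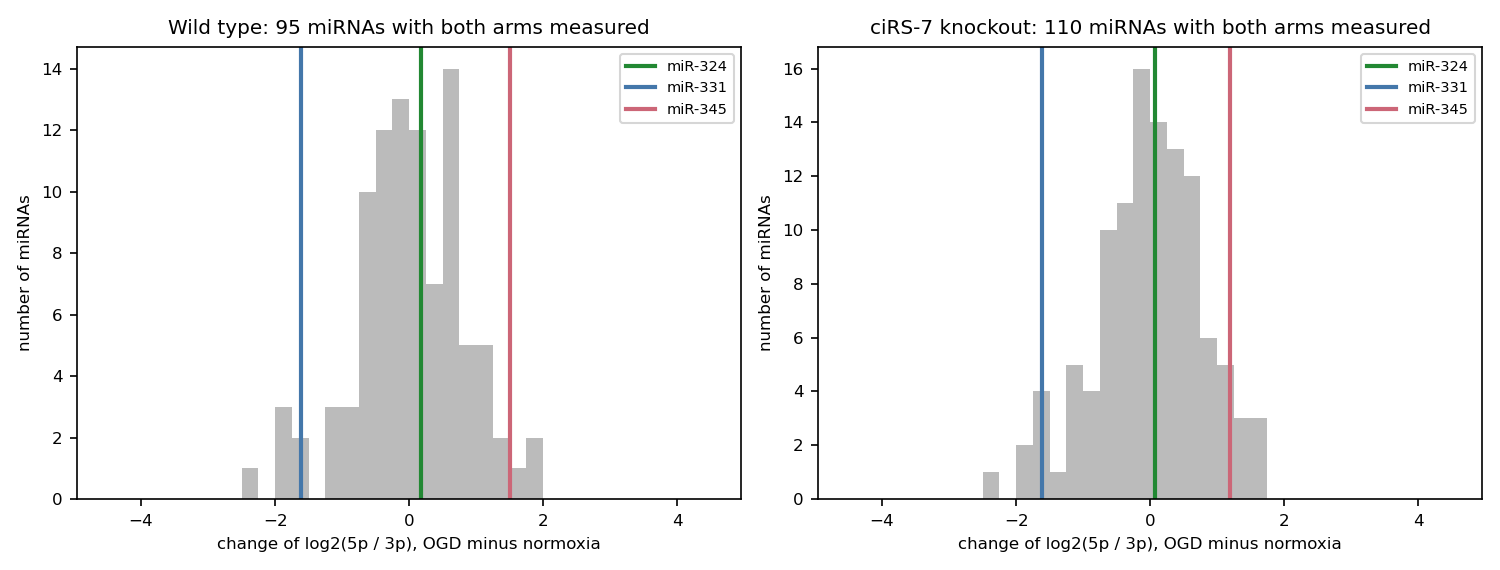
Number of miRNAs (vertical axis) by change of log2 5p over 3p, OGD minus normoxia (horizontal axis), for miRNAs with both arms measured: 95 in wild-type and 110 in knockout neurons. Coloured lines mark miR-324 near 0, miR-331 in the left tail (-1.61 and -1.62) and miR-345 on the right (1.50 and 1.20).

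Genotype was not used to choose the members, so knockout and wild type were compared with a test. For none of the 7 measurable arms did a difference pass, in normoxia or after OGD. In normoxia, 0 of 7 passed limma's test with Benjamini-Hochberg adjustment (adjusted p 0.984 to 0.995), and 0 of 1481 features did, or 0%. An unadjusted p under 0.05 was found for 47 features, and limma voom also called 0. On the deposited values, whose extremes are drawn in, 33 features were called (27 higher and 6 lower in the knockout). The estimates, knockout minus wild type, ran from -0.09 for miR-324-3p to 0.25 for miR-331-5p and miR-345-5p. The 95% interval was -0.07 to 0.57 for miR-331-5p and -0.03 to 0.52 for miR-345-5p. Knockout and wild-type libraries overlapped for all 7 arms; over 403 features, 0% were higher and 0.496% lower in the knockout without overlap.

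After OGD, 0 of 7 arms passed the same limma test (adjusted p 0.861 to 0.996). Over all features 0 of 1481 did, or 0%, with 108 at an unadjusted p under 0.05 and 0 by limma voom. Other settings called 72 features (deposited values, whose extremes are drawn in), 3 (thinning) and 22 (without OGD knockout replicate 5). All 7 arms overlapped between genotypes, while 0.222% of 451 features were higher and 0.665% lower in the knockout without overlap. Estimates ran from -0.13 for miR-326-3p to 0.15 for miR-331-5p. The 95% intervals of the 7 arms together covered -0.39 to 0.53 on the log2 scale, so the data leave room for differences of that size. The OGD change itself differed between knockout and wild type by 0.02 (SE 0.20) for miR-324-5p, 0.12 (SE 0.25) for miR-324-3p and -0.27 (SE 0.16) for miR-326-3p. For miR-331-3p the difference was -0.09 (SE 0.14), for miR-331-5p -0.10 (SE 0.22), for miR-345-5p -0.29 (SE 0.22) and for miR-345-3p 0.02 (SE 0.13). These last values are given without a test, since evenness may have been judged over both genotypes. Leaving out 1 library turned the sign for miR-324-5p (-0.07 to 0.13) and miR-345-3p (-0.02 to 0.06).

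**Figure D5:**
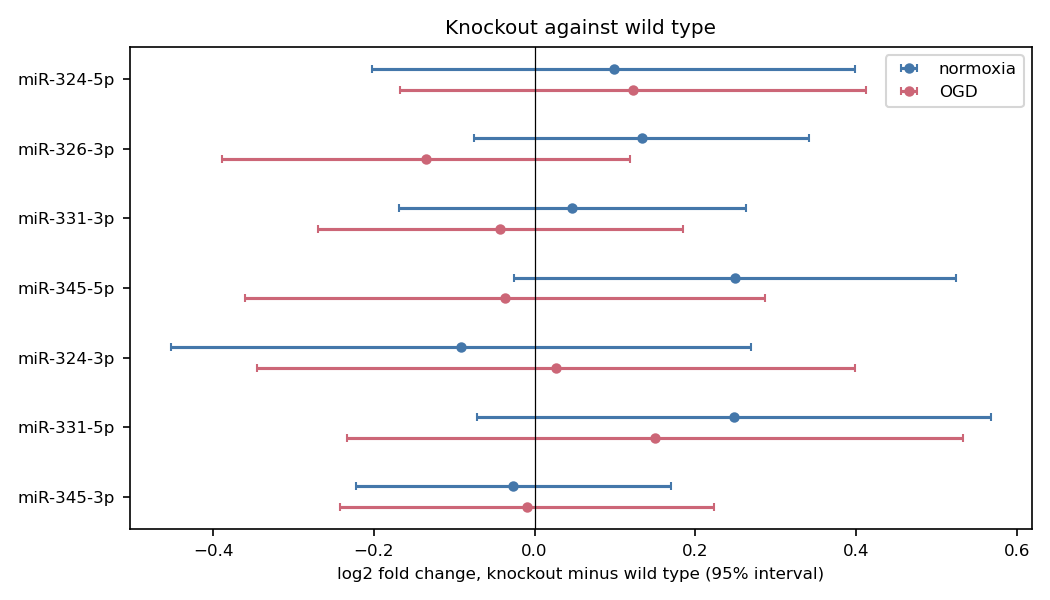
Log2 fold change, knockout minus wild type (horizontal axis), of the 7 measurable arms (rows) in normoxia (blue) and after OGD (red), with 95% intervals from limma. Every interval includes 0, and the highest estimate is 0.25, for miR-331-5p and miR-345-5p in normoxia.

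Arm balance was also compared between genotypes, with 6 exact two-sided permutation tests over 252 arrangements, whose smallest possible p is 0.00794. In normoxia the log2 ratio of 5p to 3p was higher in the knockout by 0.28 for miR-345 (exact p = 0.0556, adjusted 0.262), by 0.20 for miR-331 (exact p = 0.317, adjusted 0.595) and by 0.19 for miR-324 (exact p = 0.397, adjusted 0.595). After OGD the difference was 0.19 for miR-331 (exact p = 0.0873, adjusted 0.262), 0.10 for miR-324 (exact p = 0.690, adjusted 0.829) and -0.03 for miR-345 (exact p = 0.833, adjusted 0.833). None passed, and the libraries of the genotypes overlapped for all 3 hairpins. Ratios did not overlap for 0% of 118 miRNAs in normoxia and 4% of 100 after OGD. By size, the differences in normoxia ranked 5 (miR-345), 12 (miR-331) and 14 (miR-324) of 118, where the median absolute difference was 0.09. After OGD they ranked 90, 41 and 68 of 100 in the same order, where that median was 0.15. Without OGD wild-type replicate 3, the miR-331 difference after OGD was 0.26, with an adjusted p of 0.0476 by the exact permutation test. Without OGD wild-type replicate 4 it was 0.11, with an adjusted p of 0.524 by the same test.

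Features that share a seed or a pathway with a member did not all share its change. miR-330-5p, which has the seed of miR-326-3p, was the more abundant of the pair, at 487 ± 104 CPM in normoxic and 720.1 ± 161 CPM in OGD wild-type libraries (SD, n = 5), with overlapping groups. That overlap came from normoxic wild-type replicate 5, at 655 CPM. The other normoxic wild-type libraries were at 393 to 516 CPM, and the lowest OGD wild-type library was at 519 CPM. The log2 fold change of miR-330-5p was 0.56 (SE 0.16) in wild type and 0.39 (SE 0.10) in the knockout, against 1.46 and 1.19 for miR-326-3p. By limma it was called higher in both (adjusted p 0.0139 and 0.0076), so the pair differed in size of change. The seed partner of miR-331-5p, miR-6973b-5p, had 0 or 1 read per library. Of the Hedgehog-repressing miRNAs, miR-324-5p and miR-326-3p were higher after OGD, while the far more abundant miR-125b-5p was at 31624 ± 5437 CPM in normoxic and 30319 ± 4396 CPM in OGD wild-type libraries. For miR-125b-5p the log2 fold change was -0.06 (SE 0.12) in wild type and -0.04 (SE 0.08) in the knockout.

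The features whose levels ran most like each member over the 20 libraries were found by Pearson's r of log2(CPM + 0.5) among 423 features. These values describe libraries that share the split between normoxia and OGD, and carry no p. miR-130a-3p was among the nearest 3 for miR-331-3p (r = 0.987), miR-326-3p (r = 0.983), miR-324-3p (r = 0.973) and miR-345-5p (r = 0.971). It went from 120 ± 7.50 to 300.1 ± 49.3 CPM in wild type (SD, n = 5), and its OGD change was 1.30 (log2, SE 0.12). Members were also near each other: miR-326-3p and miR-345-5p had r = 0.979, miR-326-3p and miR-331-3p 0.979, and miR-324-3p and miR-331-3p 0.973.

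miR-324-5p ran most like miR-674-5p (r = 0.981), miR-350-3p (0.977) and miR-154-5p (0.968), ahead of every other member. miR-331-5p was apart from the rest, with r between -0.69 and -0.60 to the 5 higher arms and -0.68 to miR-331-3p of its own hairpin. Its nearest features were miR-153-5p (r = 0.823), the neuronal miR-128-3p (0.822) and miR-328-3p (0.812). These had log2 fold changes of -0.82, -0.57 and -0.66 in wild type. miR-345-3p ran most like miR-125b-2-3p (r = 0.880), with a log2 fold change of 0.30 (SE 0.10) in wild type, and next like miR-669a-5p and miR-669p-5p (r = 0.819 for each), whose values were identical to each other; how reads shared by such near-identical copies were counted is not given in the sources used here.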

How the data were processed

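Each pair of groups has its own table (6 in all), in which the authors deposited a score per feature and library rather than plain log CPM. Per the submitters' processing notes the genome build was mm10; the aligner, the counting and the miRNA release are not given in the sources used here. From the values, each deposited score was a read number times a library factor, raised to a power of 0.106 to 0.118, with the extremes of each 5 replicates drawn in to the quantiles 0.16 and 0.84. Undoing this gave whole reads for 100% of values (tolerance 0.05; 73.5% to 75.4% with the power alone), without differences in 59070 comparisons between tables. In simulated tables made with these same steps, 87400 of 87400 values were recovered. This checks the code, not whether the deposited values were made by these steps.

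CPM used the totals in the authors' library factors. limma 3.58.1 (R 4.3.3; trended eBayes) was fitted to log2(CPM + 0.5) over all features, without covariates, two-sided, with Benjamini-Hochberg adjustment and a threshold of 0.05. In simulations of 5 against 5 libraries with 1447 features, changes were placed in 200 of the better expressed features, with the same spread for every feature. There limma recovered 97.3% of 2-fold and 56.7% of 1.5-fold changes, with 4.04% and 3.41% of calls false. Recovery for rarer features was not simulated. Alternatives were the deposited values, other pseudocounts, a filter, centring, quantile normalization, thinning, limma voom, a replicate block and leaving out each library. Members, gene lists and tests were chosen with earlier results of these data known. Other features are named by a shared seed, the Hedgehog list, cell type markers, miR-210-3p, and the 3 highest correlations with each member.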

Additional observations from a re-analysis of the deposited data

Results flagged for a closer look

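In 2 of 56 groups of 5 values, 1 library lay far from the other 4 (Dixon's ratio of gap to range over 0.71 on the log2 scale). For miR-324-5p, OGD wild-type replicate 3 was at 102.8 CPM, and the other 4 OGD wild-type libraries were at 67.1 to 75.1 CPM, a gap of 0.736 of the whole range. It is the shallowest library, with 1160582 reads, and the cause of the gap was not tested. For miR-210-3p, OGD wild-type replicate 5 was at 47.18 CPM, and the other 4 were at 110.6 to 128 CPM, a gap of 0.853 of the range. Chance alone flags about 5% of groups.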

How the results depend on the processing

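Directions of the 5 higher arms held under each alternative run on a log2 scale, and centring or quantile normalization lowered their OGD changes. miR-345-3p turned: -0.3745 (centred, with or without the replicate block) and -0.2549 (quantile) in wild type, -0.3067 and -0.1441 in the knockout. Features called after OGD were 341 in wild type (276 higher, 65 lower) and 363 in the knockout (278 higher, 85 lower). limma voom called 676 and 764, thinning to the shallowest library 267 and 216. Centring gave 108 higher and 265 lower in wild type and 112 and 324 in the knockout; quantile normalization gave 141 and 191, and 141 and 186. The cause was not tested.

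Genotype calls, 0 in each condition, were 33 in normoxia and 72 after OGD on the deposited values, whose extremes are drawn in, and 3 after OGD with thinning. Small genotype estimates changed sign: miR-324-3p in normoxia to 0.07867 (thinned); after OGD, miR-331-3p to 0.03872 (centred, with or without block) and 0.02206 (quantile), miR-345-3p to 0.07178 (centred, with or without block), 0.0375 (quantile) and 0.004664 (voom), and miR-345-5p to 0.04452 (centred, with or without block), 0.04053 (quantile) and 0.08043 (thinned). Thinning moved the genotype difference in the log2 arm ratio of miR-324 to -0.07741 in normoxia and -0.01864 after OGD, that of miR-331 to 0.06731 in normoxia and 0.367 after OGD, that of miR-345 after OGD to 0.1731, and the OGD change of the miR-345 ratio in wild type to 1.22.

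Leaving out 1 library at a time gave 0 to 22 genotype calls after OGD (22 without OGD knockout replicate 5), 0 to 1 calls for the interaction of genotype and OGD (1 without OGD wild-type replicate 1) and 0 to 1 arm ratio calls (miR-331, without OGD wild-type replicate 3). The difference in OGD change between genotypes ranged from -0.0725 to 0.125 for miR-324-5p, 0.02801 to 0.2251 for miR-324-3p, -0.3322 to -0.1809 for miR-326-3p, -0.1463 to -0.04852 for miR-331-3p, -0.1817 to -0.003477 for miR-331-5p, -0.404 to -0.1586 for miR-345-5p and -0.02082 to 0.05859 for miR-345-3p. Genotype estimates ranged from -0.06821 to 0.003258 for miR-345-3p, -0.1645 to -0.001573 for miR-324-3p and 0.153 to 0.3312 for miR-331-5p in normoxia. After OGD they ranged from -0.1992 to -0.04781 for miR-326-3p, 0.08645 to 0.2015 for miR-331-5p, -0.05126 to 0.1333 for miR-324-3p, -0.04709 to 0.03074 for miR-345-3p and -0.1547 to 0.09071 for miR-345-5p. In normoxia the genotype difference in arm ratio ranged from 0.06285 to 0.3592 for miR-324 and from 0.09557 to 0.3164 for miR-331. After OGD it ranged from -0.02955 to 0.1924 for miR-324 and from -0.1076 to 0.05997 for miR-345, that for miR-331 from 0.1085 to 0.2609, and the OGD change of the miR-324 ratio in the knockout from -0.09318 to 0.2032.

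Replicate numbers were not treated as pairing the samples, because the labels do not say that they do and not every pair correlated above 0.1. Correlations of same-numbered deviations ran from -0.17 to 0.66 in wild type and from -0.21 to 0.49 in the knockout between normoxia and OGD, where 4 of 5 pairs in each genotype were above 0.1. In wild type 4 and in the knockout 3 of 5 libraries correlated best with their own number, a hint of pairing from the data and not from the design. With the replicate block, 389 features were called in wild type and 403 in the knockout, and 0 by genotype in either condition. For arm ratios the block has 32 arrangements and a smallest exact permutation p of 0.0625, so the 0 calls there say nothing; miR-345 in normoxia was at that smallest p. The block with centring was added after seeing the data. The difference in OGD effects was not run on deposited values, since tables were normalized separately. Depth limits miR-326-5p (0 to 3 reads) and, next, miR-331-5p and miR-324-3p, with 22 and 26 reads in their lowest libraries.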
